A study of Sus scrofa with 12 samples.

Results

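The crypt stem cell and Wnt genes described here are a list of 10 genes that mark intestinal stem cells or answer to Wnt signals, and they were looked up by gene name in an RNA-seq table of piglet jejunum. A row with its own name was found for 6 of the 10 (OLFM4, SOX9, EPHB2, RNF43, MYC and CD44), out of 17049 gene names in the table. A further 3 listed genes (LGR5, SMOC2 and AXIN2) have rows only under Ensembl identifiers, which a pig gene name table pairs with these symbols, and their values are given apart from the 6. ASCL2 was not analysed here.

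The table holds 12 libraries in 4 groups of 3, from pigs (Sus scrofa). The W_Con and PW_Con groups are piglets of sows on a basal corn and soybean meal diet, taken at 21 days of age, on the day of weaning (sucking piglets), and at 28 days, 7 days after weaning (weaned piglets). The W_Res and PW_Res groups are piglets of the same 2 ages whose sows ate the basal diet with 300 mg/kg of resveratrol, a plant polyphenol, through pregnancy and lactation. Age and time since weaning change together, so that growth between 21 and 28 days and weaning cannot be told apart. The sample records and the methods of the study differ on the breed and on where the weaned piglets were housed, and the study uses only the 6 libraries of control litters. The resveratrol groups are a second comparison that the table allows.

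The inner surface of the small intestine is renewed from crypts, pits between the villi. Stem cells at the crypt base divide under Wnt ligands from neighbouring cells, their daughters multiply in the crypt wall, and the cells stop dividing and take up their absorptive or secretory work as they reach the villus. Wnt ligands bind Frizzled receptors and LRP5 or LRP6, which stabilises beta-catenin, and beta-catenin with TCF factors turns on target genes, some of which feed back to restrain the signal. LGR5, OLFM4, SMOC2 and ASCL2 are known as stem cell marks, RNF43 and AXIN2 as targets that restrain the pathway, MYC and SOX9 as transcription factors under Wnt control, and EPHB2 and CD44 as surface proteins of crypt cells.

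Values are FPKM, fragments per kilobase of transcript scaled to the mapped reads, as the authors estimated them. They are not counts, so the read depth behind a gene is unknown. Across 11434 genes, Pearson's r between libraries of a group was 0.911 to 0.948 in W_Con, 0.925 to 0.940 in PW_Con, 0.873 to 0.905 in W_Res and 0.919 to 0.956 in PW_Res, where genes are not independent replicates. W_Res replicate 2 stood apart. Its median r with the other libraries was 0.873, its VIL1 (villin, of the enterocyte brush border) was 296 FPKM against 545 to 1062 in the others, and its 13 smooth muscle and stroma genes summed to 5496 FPKM against 368 to 2362. The tissue is bulk jejunum, so for every gene below fewer cells of a type and less RNA per cell cannot be told apart. VIL1 was at 296 FPKM or more in every library and the cell division gene MKI67 at 25.9 to 86.0 FPKM, so both villus and dividing cells are represented.

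OLFM4 encodes olfactomedin 4, a secreted glycoprotein of crypt base cells. It was the most abundant of these genes, with a mean of 645 FPKM over the 12 libraries, at the 99.6th percentile of all gene names. The sucking control piglets had 803, 630 and 350 FPKM and the weaned control piglets 234, 345 and 1193 FPKM. The resveratrol litters had 1213, 461 and 346 FPKM at 21 days and 146, 880 and 1145 FPKM at 28 days. Each group therefore held both high and low piglets, and all 4 groups overlapped. The highest library had 8.30 times the level of the lowest. The group means lay between 590 FPKM (SD 525, n = 3) in PW_Con and 724 FPKM (SD 517, n = 3) in PW_Res, and no neighbours in that order differed beyond their spread. On the log2(FPKM + 1) scale the weaning effect was -0.29 in control litters (95% interval -1.72 to 1.13) and -0.13 in resveratrol litters (-2.04 to 1.78). With intervals this wide a change of OLFM4 by a factor of 2 in either direction was not detectable. The table has 2 loci for OLFM4, of which the smaller adds 1.23 FPKM on average.

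**Figure D1:**
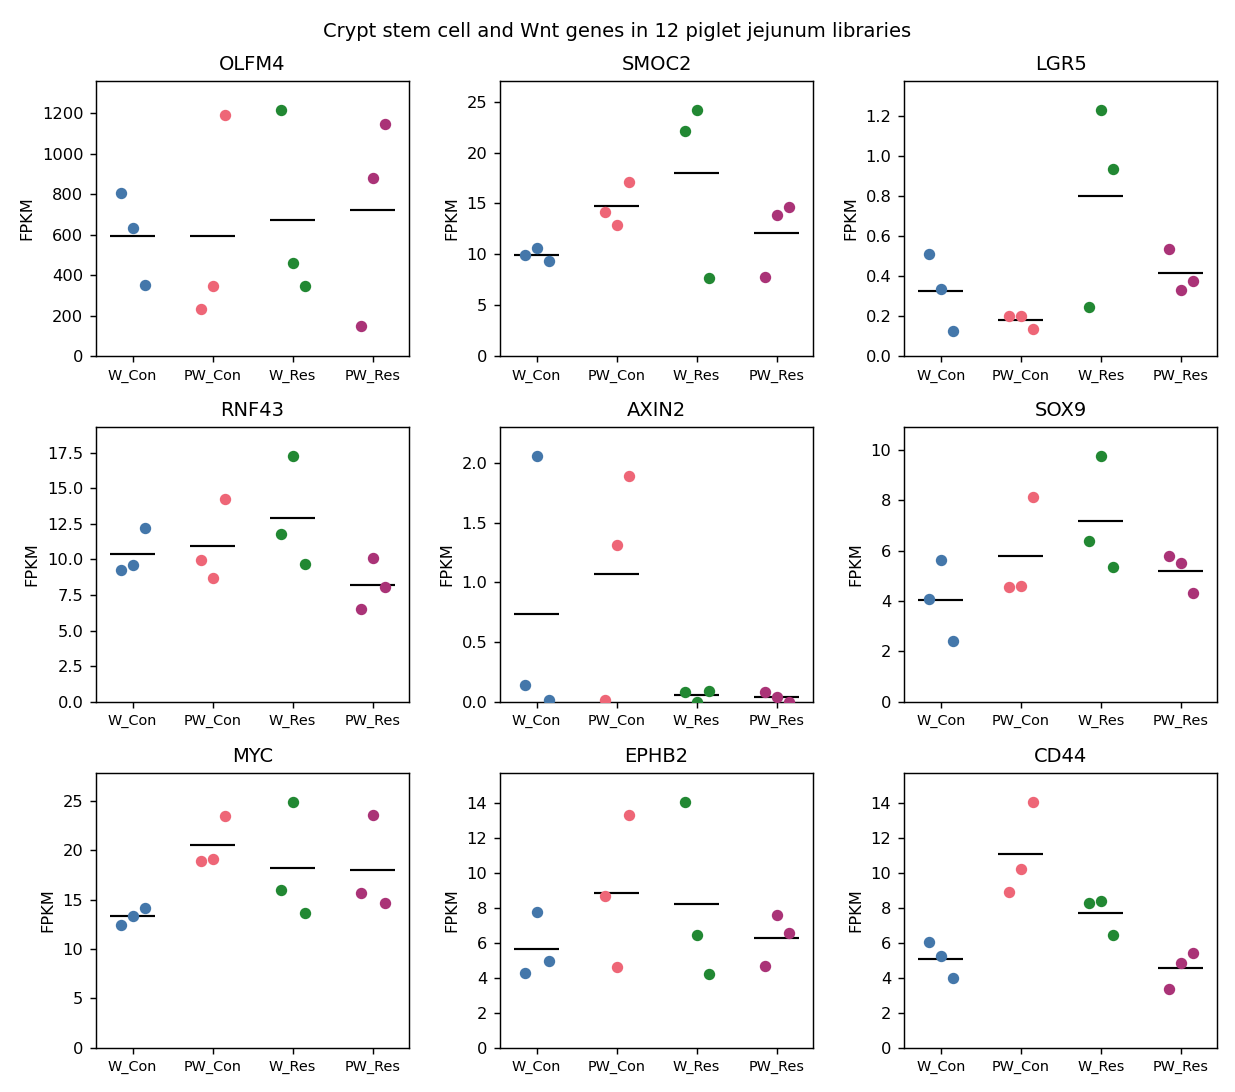
FPKM of each gene in the 12 libraries, by group, with 1 point per library and a bar at the group mean (n = 3); every vertical axis starts at 0 and has its own scale. LGR5, SMOC2 and AXIN2 are rows matched by Ensembl identifier. For OLFM4 every group spans high and low libraries, whereas CD44 lies at 8.88 to 14.0 FPKM in PW_Con and at or below 8.37 FPKM in the other groups.

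SMOC2 encodes a secreted matrix protein that marks crypt base stem cells in the mouse and is also made by stromal cells. It was at 9.90, 10.6 and 9.35 FPKM in the sucking control piglets and 14.2, 12.9 and 17.1 FPKM in the weaned ones, and these groups did not overlap. The log2 fold change was 0.51 (SE 0.17), or 1.43-fold higher, with an adjusted p of 0.196 in limma. Its unadjusted P was under 0.05, as it was in 13 of 17 alternative settings. In resveratrol litters it ran from 7.67 to 24.1 FPKM at 21 days and from 7.78 to 14.6 FPKM at 28 days, with overlapping groups. LGR5, the receptor for R-spondins that defines crypt base stem cells, was near the bottom of the range. It was at 0.512, 0.334 and 0.125 FPKM in W_Con and 0.201, 0.198 and 0.137 FPKM in PW_Con. In resveratrol litters it was at 0.244, 1.23 and 0.934 FPKM at 21 days and 0.535, 0.330 and 0.374 FPKM at 28 days. At 28 days the resveratrol and control groups did not overlap, in the direction of more LGR5 with resveratrol, but all values there were under 1 FPKM and the gene fell below the minimum mean of 0.5 FPKM for the limma test. An exact permutation of the maternal diet within each age (400 assignments, two-sided) gave an unadjusted p of 0.045 for LGR5 over both ages, the lowest among the 9 genes, and the smallest p this permutation can give is 0.005. The highest LGR5 value, 1.23 FPKM, was in W_Res replicate 2, the library that stood apart. LGR5 had r = 0.68 with the smooth muscle and stroma sum over the 12 libraries (0.50 within groups). With the summed Wnt ligand and receptor genes r was higher, 0.86 (0.85 within groups). With the summed other stem cell and niche genes it was 0.79 (0.71), and with the cell division genes -0.61 (-0.54). The part of stroma in its level was not tested.

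RNF43, a ubiquitin ligase of the cell membrane that removes Frizzled receptors, overlapped between ages in both sets of litters. In control litters it was at 9.29, 9.63 and 12.2 FPKM in sucking and 9.94, 8.67 and 14.3 FPKM in weaned control piglets, a log2 fold change of 0.05 (95% interval -0.46 to 0.57). In resveratrol litters it was at 11.8, 17.2 and 9.65 FPKM at 21 days and 6.51, 10.1 and 8.06 FPKM at 28 days. That log2 fold change was -0.57 (SE 0.27, adjusted p = 0.404 in limma), and 1 weaned library (10.1 FPKM) lay above the lowest sucking one. AXIN2, a scaffold of the complex that destroys beta-catenin, was read unevenly. The values were 0.143, 2.06 and 0.0125 FPKM in W_Con and 0.0133, 1.31 and 1.89 FPKM in PW_Con, while the 6 resveratrol libraries lay between 0 and 0.0933 FPKM. Only 1 assembled transcript, and none of the Ensembl annotation, stands behind the AXIN2 row, and how much of the gene it covers is unknown.

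SOX9, a transcription factor of crypt base and Paneth cells, was at 4.09, 5.63 and 2.40 FPKM in W_Con and 4.55, 4.62 and 8.15 FPKM in PW_Con. It was at 6.39, 9.75 and 5.34 FPKM in W_Res and 5.79, 5.52 and 4.31 FPKM in PW_Res. Its 4 groups overlapped from each neighbour in the order of means to the next. At 21 days it was 1.64-fold higher in resveratrol litters, with an adjusted p of 0.395 in limma and an unadjusted P above 0.05. That log2 fold change of 0.71 ranged from 0.22 to 0.94 over 17 other settings (adjusted p from 0.218 to 0.919), with an unadjusted P under 0.05 in 6 of them, the fits without W_Con replicate 2 (0.94) or W_Res replicate 3 (0.88) included. Without W_Res replicate 2 it was 0.49 (adjusted p = 0.696), without W_Con replicate 3 0.45 and with the stroma sum as a covariate 0.22. Fits with a marker sum as a covariate, here and below, use all 12 libraries. They differ from the pairwise fits in more than the covariate.

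MYC, which drives ribosome production and division in crypt cells, was at 12.4, 13.3 and 14.2 FPKM in the sucking control piglets and 19.0, 19.1 and 23.5 FPKM in the weaned ones. All weaned control piglets lay above all sucking ones. The log2 fold change was 0.58 (SE 0.16; 95% interval 0.21 to 0.96), with an adjusted p of 0.161 in limma (unadjusted P under 0.05). The resveratrol litters had 16.0, 24.9 and 13.6 FPKM at 21 days and 15.6, 23.6 and 14.7 FPKM at 28 days. These overlapped fully, and the difference of their means on the log2 scale rounded to 0.00 (95% interval -0.68 to 0.68). The test of the difference between the litters gave -0.58 (95% interval -1.32 to 0.15, adjusted p = 0.455), so that the MYC change was not shown to differ by maternal diet.

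EPHB2, a receptor tyrosine kinase that positions cells along the crypt, was at 4.30, 7.76 and 4.95 FPKM in W_Con, 8.70, 4.60 and 13.3 FPKM in PW_Con, 14.1, 6.47 and 4.22 FPKM in W_Res and 4.65, 7.56 and 6.58 FPKM in PW_Res. It varied about 3.33-fold over the libraries with no order by group. Its weaning effect was 0.50 (95% interval -0.36 to 1.35) in control and -0.23 (-1.15 to 0.70) in resveratrol litters on the log2 scale.

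CD44 encodes a receptor for hyaluronan and is a classical Wnt target of crypt cells, though lymphocytes and stromal cells also carry it. It was the member with the clearest separation of groups. The values were 6.01, 5.26 and 3.97 FPKM in W_Con and 8.88, 10.23 and 14.0 FPKM in PW_Con. In resveratrol litters the direction was the opposite, with 8.24, 8.37 and 6.43 FPKM in W_Res and 3.36, 4.83 and 5.41 FPKM in PW_Res. In the order of means, PW_Con (11.04, SD 2.67), W_Res (7.68, SD 1.08), W_Con (5.08, SD 1.03) and PW_Res (4.53, SD 1.06), the first 3 groups were separate from one another, and W_Con and PW_Res overlapped.

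Weaning in control litters went with 1.97-fold more CD44 on the scale of FPKM + 1, a log2 fold change of 0.98 (SE 0.23; 95% interval 0.45 to 1.51) with an adjusted p of 0.130 in limma. The standard of the study for a changed gene asks for an unadjusted P below 0.05 together with more than a doubling or halving, a log2 fold change past 1 or -1. CD44 passed its P limit and fell just short of its fold limit. It met both with a pseudocount of 0.1 (1.10), in the Ballgown linear model (1.01) and with the distal less the proximal sum as a covariate (1.04). In resveratrol litters CD44 was 0.633-fold after weaning, a log2 fold change of -0.66 (SE 0.23, unadjusted P under 0.05, adjusted p = 0.340). At 28 days CD44 was 0.461-fold in resveratrol against control litters, which met the standard (log2 fold change -1.12, SE 0.23, adjusted p = 0.371). At 21 days it was 1.43-fold in the other direction (0.52, SE 0.23, unadjusted P above 0.05, adjusted p = 0.382). The groups did not overlap in any of these 4 comparisons, for each of which the exact permutation test of 3 against 3 gives its smallest possible p, 0.1. The comparison at 28 days no longer met the standard without PW_Con replicate 3 (-0.95) or PW_Res replicate 1 (-0.96), and the unadjusted P in resveratrol weaning was no longer under 0.05 without W_Res replicate 1 (-0.61), W_Res replicate 2 (-0.60) or PW_Res replicate 1 (-0.50). Control weaning met the standard when W_Con replicate 1 or 2, or PW_Con replicate 1 or 2, was left out. These comparisons share groups of libraries and are not independent of one another.

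The difference of the weaning effect between maternal diets, fitted over all 12 libraries, was -1.64 for CD44 (SE 0.32; 95% interval -2.33 to -0.94; adjusted p = 0.251 in limma). Its unadjusted P had rank 13 from the lowest among 12886 genes, and it met the standard. It met it in each of 21 alternative settings too, with values from -1.86 to -1.47 and adjusted p from 0.0911 to 0.763. Without W_Res replicate 2 it was -1.58 (adjusted p = 0.368). The smooth muscle and stroma sum was 368 to 1415 FPKM in W_Con, 682 to 1010 in PW_Con, 1228 to 5496 in W_Res and 434 to 1124 in PW_Res, so that it too was higher in W_Res than in PW_Res. The lymphocyte sum (18 genes) was 339 to 403, 300 to 497, 256 to 339 and 229 to 328 FPKM in the same order, and the ranges of PW_Con and PW_Res overlapped. Gene by gene, 16 of 17 lymphocyte genes were lower with resveratrol at 28 days (median log2 fold change -0.88, or -0.30 without PW_Con replicate 2 and -0.35 without PW_Res replicate 3), where 2 had an unadjusted P under 0.05 against 10.2% of all genes and 5 had groups apart against 17.3%. At 21 days, where CD44 was higher with resveratrol, 9 of 14 were lower (median -0.91), all 9 with an unadjusted P under 0.05, and 1 of the others was higher by the same rule, against 13.3% of all genes. There 11 had groups apart, against 21% of all genes, and 6 met the standard, all lower (4.47% of all genes). Averaged over both ages 14 of 17 were lower, 8 with an unadjusted P under 0.05 (12.3% of all genes). Of those 8, 6 met the standard (0.939% of all genes) and 1 had an adjusted p under 0.05 in limma (0.14%). The sum of 6 genes typical of the proximal small intestine was 14.4 to 23.8 FPKM in PW_Con and 43.0 to 82.0 FPKM in PW_Res, without overlap, and 19.0 to 146 FPKM in W_Con and 43.5 to 103 FPKM in W_Res. Fits with the stroma sum, the lymphocyte sum or the distal less the proximal sum as a covariate are among the 21 settings, and with each of them CD44 met the standard at 28 days too (-1.10, -1.11 and -1.19). In resveratrol weaning 11 of 13 stroma genes met the standard. The 12-library fit with the stroma sum as a covariate put CD44 there at -0.53, with an unadjusted P above 0.05 (adjusted p = 0.896). Villus enterocyte genes moved in the opposite direction to CD44 in the difference between diets, 11 of 14 higher with a median of 1.05 (0.52 without PW_Con replicate 3), and 3 met the standard against 7.76% of all genes. Their medians were -0.68 in control weaning, 0.01 in resveratrol weaning, -0.82 for resveratrol at 21 days and 0.22 at 28 days. The part of stromal, immune and villus cells in the level of CD44 itself was not tested.

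**Figure D2:**
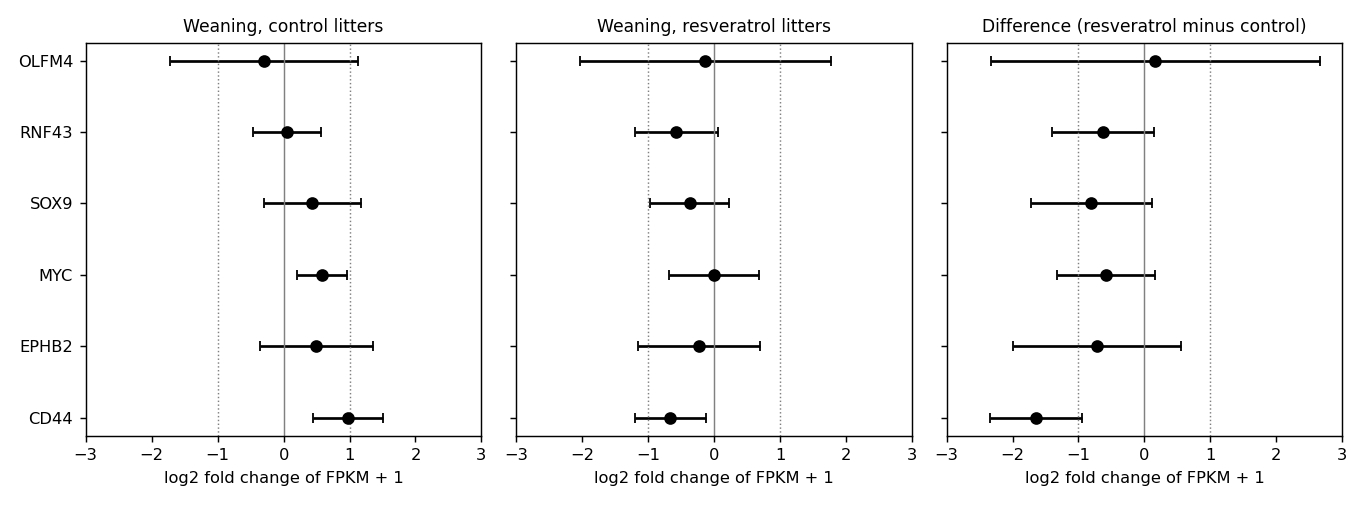
Log2 fold change of FPKM + 1 for the 6 genes found by name, for weaning (28 against 21 days) in control litters, in resveratrol litters and for the difference between them, with points at the estimate and bars at the 95% interval from limma. Dotted lines stand at 1 and -1. The interval of CD44 excludes 0 in all 3 panels, that of MYC in control litters alone, and that of OLFM4 spans both dotted lines in each panel.

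Counted over the 6 genes, weaning in control litters gave 5 higher and 1 lower. No member met the standard, which 3.31% of 12611 genes tested did, and the unadjusted P was under 0.05 for 2 (CD44 and MYC) against a background of 17.7%. The groups did not overlap for those 2 genes, against 25.3% of all genes. After Benjamini-Hochberg adjustment 0% of all genes were under 0.05. In resveratrol litters all 6 had a negative log2 fold change after weaning, but MYC, at -0.0007, was in effect unchanged. OLFM4 was lower on the log2 scale only, as its mean was 724 FPKM in PW_Res and 673 FPKM in W_Res. None met the standard (4.75% of 13013 genes), and 1, CD44, had an unadjusted P under 0.05 and groups apart (13.3% and 21.8% of all genes). The adjusted p was under 0.05 for 0.00768% of genes and for no member. The median of all genes was -0.16 on the log2 scale in that comparison, and it moved to -0.04 after median-of-ratios rescaling. That rescaling took CD44 to -0.52 (adjusted p = 0.431) there, with an unadjusted P above 0.05. In the difference between diets the median of all genes was -0.15, and changes in both comparisons are to be read relative to these shifts.

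The maternal diet at 21 days gave 6 members higher and 0 lower in resveratrol litters. Smooth muscle and stroma genes were higher too, 12 of 13 with a median of 0.94, and 5 met the standard, or 1 higher when W_Con replicate 3, W_Res replicate 1 or W_Res replicate 2 was left out. Villus enterocyte genes were lower, 13 of 14 with a median of -0.82 (-0.35 without W_Res replicate 2), and 3 met the standard. The part of both in the members' direction was not tested. None of the members met the standard (4.47% of 13186 genes) or had an unadjusted P under 0.05 (13.3%), and the groups were apart for CD44 alone (21% of all genes), with 0% of genes under an adjusted p of 0.05. At 28 days 1 was higher and 5 were lower. CD44 met the standard (1.81% of 12380 genes), and it alone had an unadjusted P under 0.05 (10.2%) and groups apart (17.3%), while 0.00808% of genes passed the adjusted test. For the difference between diets CD44 alone was called of the 6, against 7.76% of 12886 genes at the standard, 13.7% by unadjusted P and 0% by adjusted p. SOX9 at -0.80, EPHB2 at -0.72 and RNF43 at -0.63 were negative as well (adjusted p of 0.413, 0.600 and 0.446), and OLFM4 at 0.16 (adjusted p = 0.962) was not. Averaged over both diets, weaning gave no member with an unadjusted P under 0.05, where 19% of genes had one, 1.42% met the standard and 0.0776% passed the adjusted test. Averaged over both ages, resveratrol gave none either, against 12.3%, 0.939% and 0.14% of genes. Read against these backgrounds, 1 or 2 genes called of 6 is no result about the list as a whole.

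The rest of the Wnt pathway was read from 4 lists holding 68 genes, of which 50 had a row. In control litters 42 were tested, 25 higher and 17 lower after weaning, and 16.7% had an unadjusted P under 0.05, against 17.7% of all genes. Their median log2 fold change was 0.10, against -0.02 for all genes. In resveratrol litters 13 of 44 were higher and 31 lower, with a median of -0.37 against -0.16. An unadjusted P under 0.05 was reached by 22.7% of them, all 10 lower, against 13.3% of all genes. Without W_Res replicate 2 that count was 1 higher and 5 lower of 43, against 8.57% of all genes, and with the smooth muscle and stroma sum as a covariate it was 1 higher and 2 lower of 42, against 5.56% of all genes. The standard was met by 4 of the 44 in resveratrol litters, all lower, against 4.75% of all genes, by 1 of 43 without W_Res replicate 2 (3.06% of all genes) and by 0 of 42 with that covariate (2.52%). None of the pathway genes had an adjusted p under 0.05 in either set of litters. With resveratrol at 21 days 31 of 44 were higher and 13 lower (median 0.40 against 0.09), and an unadjusted P under 0.05 was reached by 22.7%, all 10 higher, against 13.3% of all genes. That number was 4 of 45 without W_Con replicate 3 (6.93% of all genes), 7 higher and 1 lower of 43 without W_Res replicate 2 (8.06%) and 6 of 42 with the stroma covariate (9.29%). At 28 days it was 4.76% against 10.2%, with 8 of 42 higher and 34 lower. In the difference between diets it was 23.8% against 13.7%, with 1 higher and 9 lower by that rule, and 2 lower of 42 with the stroma covariate (6.02% of all genes). Leaving out 1 library gave 4 to 14 lower there, the fewest without W_Con replicate 3. The shares of all genes in those fits are not given here, so that range shows only how the count moved. The comparisons that use W_Res share its 3 libraries.

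Among ligands and receptors, LRP6, the Wnt co-receptor, was at 1.91 to 2.54 FPKM in W_Con and 1.09 to 1.24 FPKM in PW_Con (log2 fold change -0.56, unadjusted P under 0.05, adjusted p = 0.192), and without W_Con replicate 1 it was -0.49 with an unadjusted P above 0.05. In resveratrol litters its change was -0.47 (adjusted p = 0.489). FZD7, a Frizzled receptor of stem cells, fell in resveratrol litters from 4.11, 6.07 and 3.02 FPKM to 1.17, 1.299 and 2.62 FPKM (-1.004, adjusted p = 0.318), and was at -0.04 in control litters. It was short of the standard without W_Res replicate 2 (-0.79), PW_Res replicate 1 (-0.87) or PW_Res replicate 2 (-0.91), and with the stroma sum as a covariate (-0.78, adjusted p = 0.880). WNT11, a ligand of the branch without beta-catenin, did not meet the standard in either set (-0.68 and -0.95). PORCN, which adds the lipid that Wnt ligands need for release, differed between diets in its weaning effect (-1.22, adjusted p = 0.251; -0.83 with the stroma sum as a covariate, short of the standard). It was at 0.190 to 0.808 FPKM in W_Con and 1.18 to 1.33 FPKM in PW_Con, against 1.15 to 2.27 FPKM in W_Res and 0.541 to 1.35 FPKM in PW_Res.

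Of the secreted inhibitors, DKK3, a member of the Dickkopf family, was at 6.53, 16.9 and 4.67 FPKM in W_Res and 3.28, 3.47 and 2.10 FPKM in PW_Res (-1.23, adjusted p = 0.340). Its highest value was in the library that stood apart, W_Res replicate 2, without which the change was -0.74. It was short of the standard there, without PW_Res replicate 3 (-1.06, unadjusted P above 0.05) and with the stroma sum as a covariate (-0.27). FRZB, which binds Wnt ligands, had -0.91 (unadjusted P under 0.05, adjusted p = 0.340) in the same comparison and -0.02 in control litters. Its unadjusted P was above 0.05 without W_Res replicate 2 (-0.68) or PW_Res replicate 1 (-0.81) and with the stroma sum as a covariate (-0.54), and without W_Res replicate 1 it met the standard (-1.18). SFRP5, of the same family, was 3.98, 3.47 and 0.359 FPKM in PW_Res against 8.74, 12.9 and 6.29 FPKM in PW_Con, a lower level with resveratrol at 28 days that met the standard (-1.67, adjusted p = 0.394). Without PW_Res replicate 3 it was -1.07 (adjusted p = 0.666), which still met it, and with the lymphocyte sum as a covariate -1.04 with an unadjusted P above 0.05. Inside the cell, APC, a scaffold of the destruction complex, was at 3.71, 3.03 and 3.55 FPKM in W_Con and 2.18, 1.62 and 0.545 FPKM in PW_Con (-0.92, unadjusted P under 0.05, adjusted p = 0.188), and it met the standard without PW_Con replicate 1 (-1.13). TCF7L1, a TCF factor that mostly represses, was at -1.06 in resveratrol litters (adjusted p = 0.311) and 0.01 in control litters. W_Res replicate 2 held 6.15 FPKM of it, against 3.18 and 2.32 FPKM in the other W_Res libraries. Without that library TCF7L1 was at -0.74, short of the standard, and with the stroma sum as a covariate at -0.32. PYGO2, a partner of beta-catenin, had 0.70 (adjusted p = 0.306) in control and 0.32 (adjusted p = 0.730) in resveratrol litters. AXIN1 was at 0.66 in control and -0.32 in resveratrol litters. Its difference between diets was -0.98 (unadjusted P under 0.05, adjusted p = 0.251 in limma), short of the standard. CTNNB1, the gene of beta-catenin, went the other way, at -0.47 in control and 0.18 in resveratrol litters. Its difference was 0.65 (unadjusted P under 0.05, adjusted p = 0.326 in limma), also short of the standard.

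Of the other Wnt targets, PROM1, a membrane protein of crypt and progenitor cells, had the lowest P in resveratrol litters. It fell in resveratrol litters from 3.24, 4.56 and 3.63 FPKM to 1.35, 0.900 and 1.00 FPKM (log2 fold change -1.20, SE 0.23, adjusted p = 0.311). PROM1 met the standard there whichever 1 library was left out, and was at -0.84 with the stroma sum as a covariate, short of it. In control litters it was at 2.21, 1.41 and 0.843 FPKM before and 1.25, 0.872 and 1.24 FPKM after weaning, and the difference between diets met the standard narrowly (-1.005, adjusted p = 0.256). It was short of it without W_Con replicate 3 (-0.81), W_Res replicate 2 (-0.90), PW_Con replicates 1 or 3 (-0.96 each), PW_Res replicate 2 (-0.94) or PW_Res replicate 3 (-0.98), and at -0.65 with the stroma sum as a covariate. LRIG1, a brake on growth factor receptors in stem cells, was at -0.69 in resveratrol litters (unadjusted P under 0.05, adjusted p = 0.370) and 0.08 in control litters. That P was above 0.05 without W_Res replicate 1 (-0.61), W_Res replicate 2 (-0.50), PW_Res replicate 1 (-0.58) or PW_Res replicate 2 (-0.67), and with the stroma sum as a covariate (-0.34). ZNF703, a transcriptional repressor, met the standard in control litters (1.23, adjusted p = 0.233), where W_Con replicate 3 alone was at 0.567 FPKM. It was short of the standard without W_Con replicate 3 (0.70), PW_Con replicate 2 (1.02) or PW_Con replicate 3 (1.27), the last 2 by their unadjusted P, and with the distal less the proximal sum as a covariate (0.14).

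The list of other stem cell and niche genes had 12 of 17 higher and 5 lower after weaning in control litters, and 1 of 18 higher and 17 lower in resveratrol litters. The medians were 0.18 and -0.36, against -0.02 and -0.16 for all genes. Without W_Res replicate 2 the second count became 3 higher and 14 lower, and with the stroma sum as a covariate 8 and 9. An unadjusted P under 0.05 was found for 2 higher and 1 lower in control litters and for 2 lower in resveratrol litters, against 17.7% and 13.3% of all genes, so these counts are no result about the list. With resveratrol at 21 days 16 of 18 were higher (median 0.50 against 0.09), 4 with an unadjusted P under 0.05 (13.3% of all genes). Of these, 2 met the standard (4.47% of all genes). In the difference between diets 16 of 17 were lower (median -0.59 against -0.15). There 4 had an unadjusted P under 0.05 (13.7% of all genes) and 2 met the standard (7.76%), all lower. GREM1, a blocker of BMP signals made by stromal cells under the crypt, was at 8.22, 11.1 and 4.57 FPKM in W_Res and 2.83, 2.11 and 1.25 FPKM in PW_Res (-1.51, adjusted p = 0.311), and its difference between diets was -2.21 (adjusted p = 0.254). Both met the standard whichever 1 library was left out, and with the stroma sum as a covariate they were -0.14 and -0.87, with unadjusted P above 0.05. HES1, the Notch target that keeps progenitors from a secretory fate, was at 9.33 to 11.7 FPKM in W_Con and 15.7 to 23.8 FPKM in PW_Con (0.76, unadjusted P under 0.05, adjusted p = 0.154), and its difference between diets was -1.01 (adjusted p = 0.277). That difference was short of the standard without W_Con replicate 2 (-0.94), W_Res replicate 2 (-0.72), PW_Con replicate 3 (-0.83) or PW_Res replicate 3 (-0.93), and at -0.66 with the stroma sum as a covariate. DLL4, a Notch ligand, was at -0.88 in resveratrol litters (adjusted p = 0.340), and from -1.15 to -0.63 without 1 library at a time: it met the standard without W_Res replicate 3 or PW_Res replicate 1 and had an unadjusted P above 0.05 when any of the other 4 was left out. KCNE3, a potassium channel subunit of crypt cells, was at -0.83 in control litters (adjusted p = 0.177), at -1.05 without PW_Con replicate 3, which met the standard, and at -0.39 with the distal less the proximal sum as a covariate. CHRD, another BMP blocker, did not meet the standard. PORCN, AXIN1, CTNNB1, GREM1 and HES1 were chosen for naming after their values were seen.

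**Figure D3:**
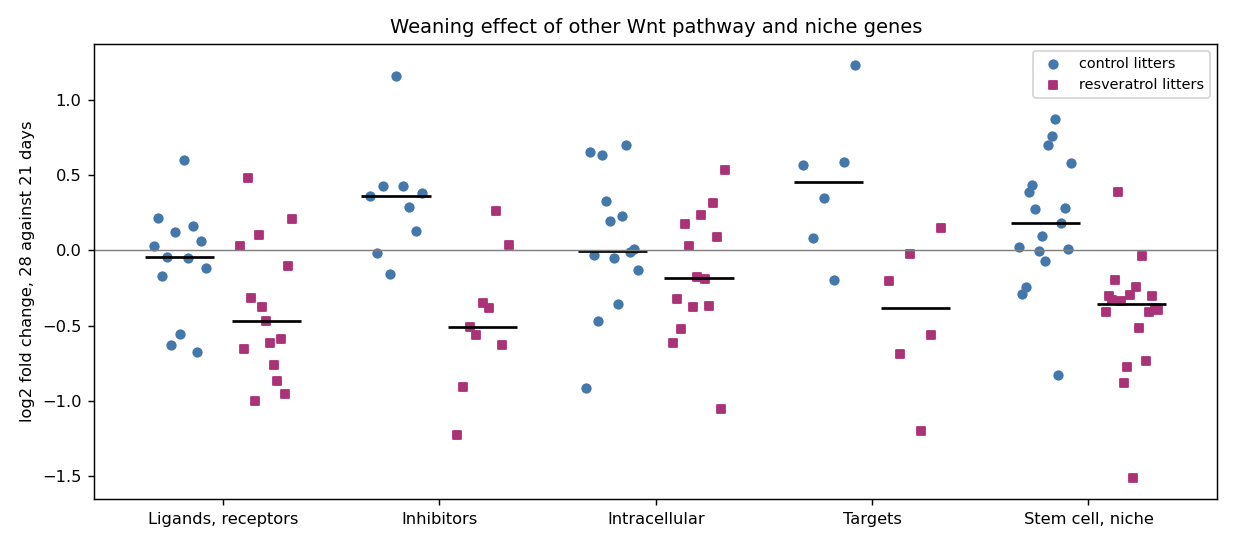
Log2 fold change of FPKM + 1 after weaning for genes of 5 lists, with 1 point per gene, circles for control and squares for resveratrol litters, and a bar at each list's median. The resveratrol medians lie below 0 in all 5 lists, where the median of all genes was -0.16, and the control medians lie between -0.04 and 0.46.

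Stromal and other markers moved in the same comparisons. In resveratrol litters 11 of 13 smooth muscle and stroma genes met the standard, against 4.75% of all genes, all lower after weaning (ACTG2 -2.76, CNN1 -2.48, COL3A1 -1.35), and their median was -1.35. The number was 2 without W_Res replicate 2 or without PW_Res replicate 3 and 7 without PW_Res replicate 2, and all 13 were lower in each of these fits. The share of 4.75% is that of the full fit, and shares differ between fits. In the Ballgown linear model, which carries a library covariate, 12 of the 13 were higher and 0 met the standard. In control litters the median was 0.01. Of 14 villus enterocyte genes 12 were lower in control litters, with a median of -0.68 (-0.19 without PW_Con replicate 3). In the full fit 3 met the standard, against 3.31% of all genes in that fit (1 without PW_Con replicate 3, 2 without W_Con replicate 2 and 5 without PW_Con replicate 2). They were FABP2, the intestinal fatty acid-binding protein, at -2.20 (adjusted p = 0.117), APOB of lipoprotein particles at -1.23 (adjusted p = 0.189) and the enteropeptidase gene TMPRSS15 at -1.14 (adjusted p = 0.161), the last 2 named after their values were seen. In resveratrol litters 8 were higher and 6 lower, 1 of them higher at the standard against 4.75% of all genes. The lipoprotein APOA1 and the peptidase MEP1B were at -1.74 and -0.75 in control litters, and neither met the standard. Genes of cell division had medians of 0.21 and 0.28 in control and resveratrol litters, with the replication factor MCM2 at 0.63 (adjusted p = 0.258) and 0.32, MCM4 at 0.31 and 0.36 and the mitotic cyclin CCNB1 at 0.13 and 0.59. Among 10 secretory lineage genes tested, 1 met the standard in control litters, against 3.31% of all genes, the goblet cell peptide TFF3, which is named by the same rule as LYZ. It rose from 313, 610 and 350 FPKM to 995, 683 and 1364 FPKM (1.26, adjusted p = 0.159; 1.02 to 1.55 without 1 library at a time), and with the distal less the proximal sum as a covariate it was 1.08 with an unadjusted P above 0.05. The Paneth cell product LYZ was at 0.33 and 2.29, neither past the standard. Of the 17 lymphocyte genes tested in control litters 8 were higher and 9 lower (median -0.01), with 1 in each direction at the standard. CD79B of B cells was the higher one (2.05, adjusted p = 0.279), with 37.5 FPKM in PW_Con replicate 2 against 2.25 and 3.29 FPKM in the other PW_Con libraries. Without that library it was at 0.93, and it was short of the standard also when any W_Con library was left out (1.92 to 2.22). The sum of 7 genes typical of the distal small intestine (FABP6, SLC10A2 and SLC51A among them) ran from 309 to 9002 FPKM in W_Con and 7125 to 10574 FPKM in PW_Con, from 291 to 7814 FPKM in W_Res and from 408 to 25561 FPKM in PW_Res. The part of these shifts in the Wnt and niche values above was not tested beyond the covariate fits given.

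OLFM4 varied from piglet to piglet inside each group, and other measures varied with it. After each group's mean was taken out, OLFM4 and CD44 had a Pearson r of 0.91 over the 12 libraries (Spearman's rho 0.67), with an exact permutation p within groups of 0.00154. Leaving out the 2 libraries farthest from the median in OLFM4 gave r = 0.84. In the 12 libraries without that step r was 0.32, since the groups differ in CD44. The 13 genes of cell division, summed, had r = 0.77 with OLFM4 (rho 0.87, exact permutation p = 0.00386, 0.89 without 2 libraries). The 14 villus enterocyte genes, summed, had r = -0.79 with OLFM4 (rho -0.82, exact permutation p = 0.0224, -0.82 without 2 libraries). Their r with CD44 was -0.80 (rho -0.68, exact permutation p = 0.0201, -0.84 without 2 libraries). All sums are of FPKM, so abundant genes weigh most in them. APOA1 made up 7310 of 10765 FPKM of the villus sum in W_Res replicate 2 and 702 of 4861 in PW_Con replicate 3. FABP6 made up 24110 of 25561 FPKM of the distal sum in PW_Res replicate 1 and 1.70 of 446 in PW_Res replicate 2. RNF43 and MYC had r = 0.87 (rho 0.78, exact permutation p = 0.00463, 0.77 without 2 libraries). CD44 had r = 0.69 with the cell division sum (rho 0.57, exact permutation p = 0.00849, 0.85 without 2 libraries). RNF43 had r = -0.73 with the distal sum (rho -0.72, exact permutation p = 0.0131, -0.63 without 2 libraries). With the summed pathway genes inside the cell RNF43 had 0.74 (rho 0.63, exact permutation p = 0.0147, 0.82 without 2 libraries). OLFM4 had -0.49 with the distal sum (exact permutation p = 0.245, -0.82 without 2 libraries). In all 87 relations of the 6 genes found by name were tested, with the list sums and with one another. After Benjamini-Hochberg adjustment none was under 0.05 (0.134 for the lowest, 0.244 for the villus genes). Relations of LGR5, SMOC2 and AXIN2 were computed without a permutation test and are not among the 87. SOX9 with the stroma sum went from r = 0.69 to 0.13 without 2 libraries, so that relation rests on them.

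**Figure D4:**
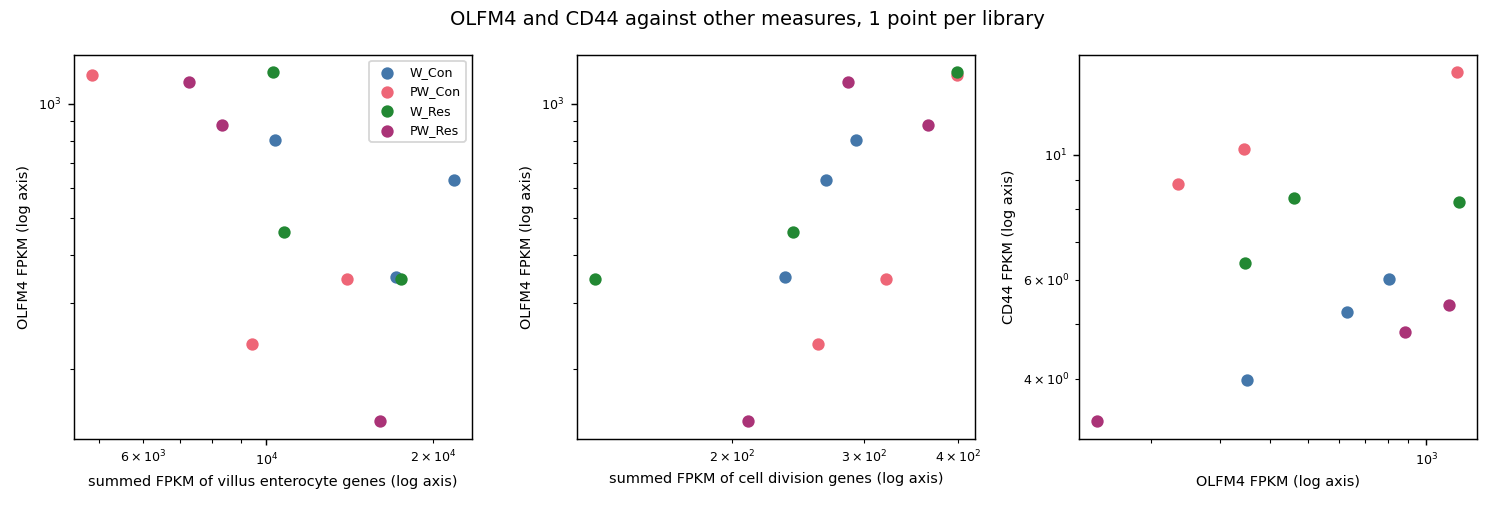
OLFM4 against the summed FPKM of villus enterocyte genes, OLFM4 against that of cell division genes, and CD44 against OLFM4, in FPKM on log axes, with 1 point per library coloured by group. Over all libraries, Pearson's r of OLFM4 was -0.59 with the villus sum and 0.65 with the cell division sum. Single libraries departed from this, such as W_Con replicate 2, which had the highest villus sum at 630 FPKM of OLFM4. In each group CD44 was lowest in the library with least OLFM4.

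Over all 12 libraries, the genes whose log2 values followed each member most closely, among 11427 compared, were PTCD2 (r = 0.88) for OLFM4, DNAL4 (0.93), RRAS (0.93) and COL6A2 (0.93) for SOX9, SUPV3L1 (0.90) for RNF43 and TIMP1 (0.90) for CD44. For EPHB2 and MYC the closest was a row known only by an Ensembl identifier (0.90 and 0.89), and the closest gene with a symbol was TMEM186 (0.88) and QTRT1 (0.88). LGR5 followed ZNF268 (0.94) and AXIN2 followed AIDA (0.80). SMOC2 followed a row known only by an Ensembl identifier (0.98), and whether both rows hold parts of 1 gene was not tested, and then DHX38 (0.93). With 12 libraries and this many genes, values of this size describe these libraries and carry no test.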

How the data were processed

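Jejunum RNA of 12 piglets (4 groups of 3) was sequenced as poly(A) libraries on an Illumina HiSeq. The authors deposited FPKM per locus; their methods name TopHat, StringTie and Ballgown, and the submitters' processing notes list HISAT2 2.0, Bowtie 0.12.2, StringTie 1.3.0 and the builds Sscrofa10.2 and mm8. FPKM carry no read depth, so no counting interval could be given. No value column was left unmatched (0). Of 41264 loci, 17650 (42.8%) have no gene name and were left out, and loci sharing a name were summed.

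Values were analysed as log2(FPKM + 1) with limma 3.58.1 (lmFit, eBayes with a trend) in R 4.3.3, over genes whose mean FPKM reached 0.5 among the libraries fitted: 6 libraries for the pairwise comparisons, 12 for the difference between diets and the averages. Fold changes on this scale understate those of low genes. The standard was that of the study's methods, an unadjusted P below 0.05 together with a log2 fold change past 1 or -1, with Benjamini-Hochberg adjustment over all genes beside it. The study's methods take 1 piglet per litter and age in control litters, without saying which libraries share a litter. For resveratrol litters no source used here says so, and p-values measure only the spread between these samples. All listed genes with a row are named whatever their values. From each further list, up to 3 genes with a mean of at least 1 FPKM and the greatest weaning change over 12 libraries could be named, and others are marked as chosen later. The members and lists were chosen with earlier results of these data known. On simulated data for the control weaning comparison (12611 genes, 200 changed by a log2 fold change of 2), 195 were recovered (97.5%) and 5.25% of the others had an unadjusted P under 0.05. For the difference between diets (12886 genes) 190 of 200 (95%) were recovered. The changed genes all had a mean log2(FPKM + 1) above 3, and the noise was normal. Recovery of smaller changes, or of genes at lower levels, was not tested. Other settings tried were the highest locus per name, a pseudocount of 0.1, a filter at 5 FPKM or none, rescaling by median of ratios, a replicate block, all 12 libraries, the Ballgown linear model, and leaving out each replicate. Marker covariates, scores of the gene lists called sums above, were added after the data were seen and fitted over all 12 libraries. A change from a 6-library fit can thus come from the other libraries too. SMOC2 in control weaning had an unadjusted P of 0.0175 in limma on 6 libraries. Over 12 it was 0.183 without a covariate and 0.177 with the stroma covariate. The result of 1 lymphocyte gene is not reported here.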

Additional observations from a re-analysis of the deposited data

Results flagged for a closer look

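CD44 had opposite weaning effects in the litters of the 2 maternal diets, higher after weaning in all 3 weaned control piglets and lower in all 3 weaned resveratrol piglets than in any sucking piglet of the same diet. The difference of -1.64 on the log2 scale (adjusted p = 0.251 in limma) was tested directly in the fit over 12 libraries. It did not pass adjustment over 12886 genes, and 7.76% of all genes met the same standard in that test. The smooth muscle and stroma sum also differed between W_Res and PW_Res. With that sum as a covariate the difference was -1.52, past the standard. The weaning effect in resveratrol litters was -0.53 in a fit over 12 libraries with it, with an unadjusted P above 0.05. Villus enterocyte genes had a difference between diets in the other direction, 11 of 14 higher with a median of 1.05, and 3 met the standard. The part of stromal and villus cells in the difference was not tested.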

How the results depend on the processing

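Of the 6 genes, the number that met the standard in control weaning was 0, and 1 (CD44) with a pseudocount of 0.1, with the Ballgown linear model and with the distal minus proximal sum as a covariate. Leaving out each replicate gave 0 to 1 there, and 1 without W_Con replicate 1, W_Con replicate 2, PW_Con replicate 1 or PW_Con replicate 2. For resveratrol at 28 days the number was 1, and 0 to 1 without single replicates (0 without PW_Con replicate 3 or PW_Res replicate 1). For the difference between diets it was 1, and 1 to 2 (2 without W_Con replicate 2, which added SOX9). The other 4 comparisons kept their number in every setting. CD44 in resveratrol weaning lost its unadjusted P under 0.05 in 7 of 17 settings: -0.52 after median-of-ratios rescaling, -0.66 with a replicate block (adjusted p = 0.494), -0.71 with the Ballgown model, -0.53 with the stroma covariate, and -0.61, -0.60 and -0.50 without W_Res replicate 1, W_Res replicate 2 and PW_Res replicate 1. Of the 37 gene and comparison pairs with an unadjusted P of 0.05 or more, 18 changed sign and 12 came under 0.05 in at least 1 setting. The causes were not tested.

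Over all genes, a pseudocount of 0.1 took the number that met the standard from 418 to 853 in control weaning, from 618 to 1163 in resveratrol weaning, from 590 to 1008 for resveratrol at 21 days and from 224 to 488 at 28 days, and from 183 to 591 and 121 to 379 for the averages over diets and ages. The minimum of 5 FPKM, which tests fewer genes, gave 227, 245, 248, 122, 118 and 76 in the same order, and 364 against 1000 for the difference. The Ballgown model gave 230 in resveratrol weaning, 175 at 21 days and 340 at 28 days. Without W_Res replicate 2 resveratrol weaning gave 388, and with the stroma covariate 325 (458 for the difference). Same-numbered samples had correlations of their deviations from -0.271 to 0.113, and the labels tie a number to no litter or day, so they share only a number. The block left the numbers of the 6 genes at the standard unchanged. Low FPKM limit LGR5 and AXIN2.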
